A study of Rattus norvegicus with 8 samples.

Results

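The collagen chain genes were examined in RNA from vessels of male rats, measured on 1-colour oligonucleotide microarrays. A gene was counted as a collagen chain gene where its RefSeq symbol (rat assembly GRCr8) had the form Col, number, a, number, and it was followed through every probe whose transcript accession belonged to it. Of 44 such genes, 23 were matched to at least 1 probe, by 31 probes in all, and 22 could be tested, out of 16678 named genes with a probe and 11965 named genes tested. The groups were 4 control rats, labelled Wistar-Kyoto (WKY, a normotensive laboratory strain), and 4 disease model rats, which the series title calls hypertensive. The strain entry of the hypertensive rats also reads Wistar-Kyoto, so which hypertensive model was used is not settled by the labels. No further treatment or allele is given, and the age of the rats and the vessel taken are not given in the sources used here. All 8 arrays lay on 1 slide and were scanned together, with the controls in row 1 and the hypertensive rats in row 2, so slide row and group cannot be told apart. The replicate number was also the slide column. In whole-vessel RNA, fewer cells of a type and less RNA per cell cannot be told apart.

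Collagens are the main structural proteins of the extracellular matrix. Each molecule is a triple helix, and the chains of a type are encoded by separate genes. Fibrillar collagens (types I, II, III, V and XI here) pack into the banded fibrils that give a vessel wall its tensile strength, and types I and III are the bulk of those fibrils in arteries. Type IV forms the sheet-like network of basement membranes under the endothelium and around smooth muscle cells. The fibril-associated collagens with interrupted helices (FACIT) sit on the surface of fibrils. The remaining chains form beaded filaments (type VI), short networks (type VIII), anchoring fibrils (type VII), membrane-spanning molecules or the multiplexins, whose cleaved ends include endostatin. In vessels, smooth muscle cells and adventitial fibroblasts are the main source of fibrillar chains.

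Levels below are log2 of the processed signal of an array minus the log2 of that array's 75th percentile over probes, so a level of 0 is the 75th percentile. Differences are hypertensive minus control, with the standard error of the limma fit after ±, and n = 4 arrays per group. Adjusted p-values are from limma with Benjamini-Hochberg adjustment over all 24552 tests, and the threshold was 0.05. Over all tests 1111 passed (4.53%), 641 higher and 470 lower in hypertensive rats. The share of calls that were higher was 57.7%, against 39.3% when arrays were centred on the median, 47.4% after quantile normalization and 45.6% after normexp background correction. The array's 75th percentile lay between 405.2 and 503 in controls and between 357 and 477.6 in hypertensive rats. No gene spot was saturated. Precision is limited by the number of arrays. Markers of smooth muscle were well above background in both groups, with 7 of 7 listed genes tested. Hypertensive replicate 4 stood apart on the second principal component and had the highest mean level of the white adipocyte markers, 1.48 against -1.62 to -0.16 on the other 7 arrays.

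Of the 22 collagen genes tested, 1 rose in hypertensive vessels, Col11a2, and 0 fell. The share of all tests past the threshold was 4.53% (2.61% higher, 1.91% lower), so a single call among 22 genes is near the background. The other 21 collagen genes did not pass. Their differences leaned to the negative side: 15 of 22 were below 0 and the median was -0.20, while over all tests 42.3% were below 0 and the median was 0.04. The range ran from -0.95 for Col1a1 to 1.1 for Col11a2. Groups were apart with no overlap for 1 gene of the 22, against 13.6% of all tests, and 2 of 22 had an unadjusted p under 0.05, against 20.3% of all tests. Collagen levels also spread more within groups than most: the median within-group standard deviation was 0.32 (log2) for the collagen genes and 0.18 for all tests.

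**Figure D1:**
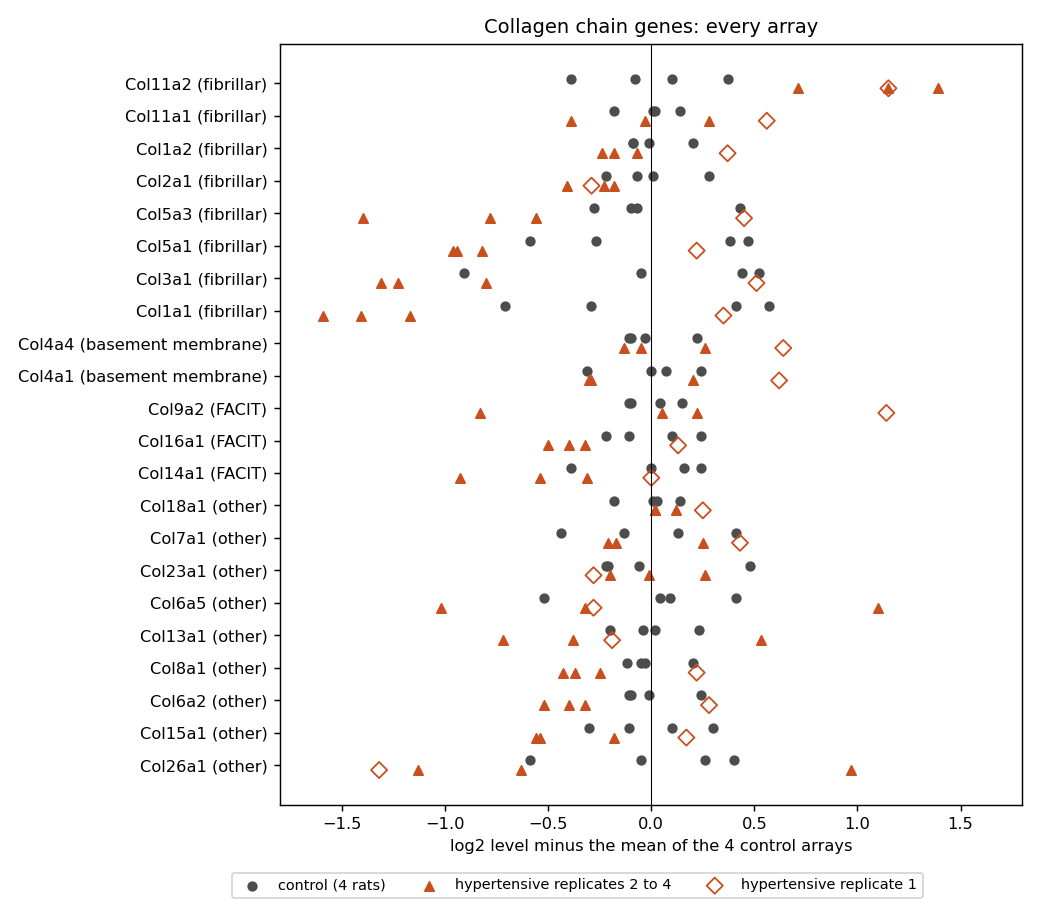
Level of each tested collagen gene on every array, as the log2 level minus the mean of the 4 control arrays, with control arrays as circles, hypertensive replicates 2 to 4 as triangles and hypertensive replicate 1 as an open diamond. Only Col11a2 has all 4 hypertensive arrays above all controls; for Col1a1, Col5a1 and Col5a3 hypertensive replicates 2 to 4 lie below the controls while replicate 1 does not.

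**Figure D2:**
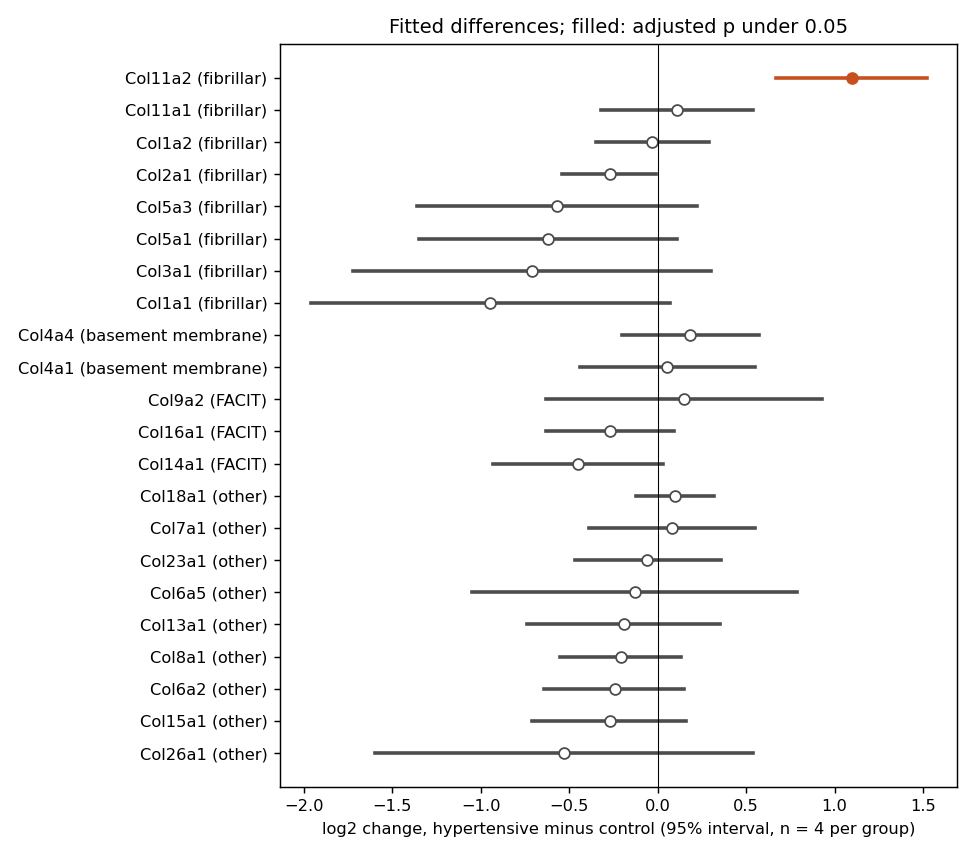
Fitted log2 difference, hypertensive minus control, of the 22 tested collagen genes with its 95% interval (n = 4 arrays per group), ordered by collagen group. The filled point, Col11a2 at 1.1, passed an adjusted p under 0.05, and the intervals of all other genes except Col2a1 include 0.

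The fibrillar group held the call as well as the largest differences in both directions. Of its 11 genes, 8 were tested: 1 rose, 0 fell, and the median difference was -0.42. Col11a2 and Col11a1 encode chains of type XI collagen, a minor fibrillar collagen known above all from cartilage, where it helps to set fibril diameter. The sequences of the 250 bases before the annotated start of both genes are shown because Col11a2 was the collagen gene called and Col11a1 is its partner in the trimer. They were taken from RefSeq (GRCr8) at chr20:4817649-4817898, minus strand, for Col11a2 and chr2:204508886-204509135, plus strand, for Col11a1. They read 5′ to 3′, with matches to 3 short motifs in capitals: the TATA box (TATAAA), the CCAAT box and the GC box (GGGCGG). Both strands were searched, so a match on the other strand reads as the reverse complement.
Col11a2: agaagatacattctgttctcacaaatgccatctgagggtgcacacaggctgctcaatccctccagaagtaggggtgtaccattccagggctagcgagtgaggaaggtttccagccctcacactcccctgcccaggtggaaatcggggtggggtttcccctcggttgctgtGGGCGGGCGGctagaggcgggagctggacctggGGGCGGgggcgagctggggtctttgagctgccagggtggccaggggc
Col11a1: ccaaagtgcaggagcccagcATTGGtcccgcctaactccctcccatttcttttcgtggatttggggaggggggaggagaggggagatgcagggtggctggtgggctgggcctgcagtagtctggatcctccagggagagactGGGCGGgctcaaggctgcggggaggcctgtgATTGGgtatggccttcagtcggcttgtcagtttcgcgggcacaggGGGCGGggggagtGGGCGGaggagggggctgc
Both windows held 3 matches to GGGCGG, of which 2 overlap in Col11a2. The forward match nearest the start began 47 bases before it in Col11a2 and 19 bases before it in Col11a1. Col11a1 also held 2 matches to CCAAT, and neither window held TATAAA.

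The level of Col11a2 on control replicates 1 to 4 was -3.29, -3.56, -3.74 and -4.05. On hypertensive replicates 1 to 4 it was -2.51, -2.51, -2.95 and -2.27, and the values of other genes follow this order. Every hypertensive array was above every control array, and the probe was well above background on all 8 arrays, although low. The difference was 1.1 ± 0.19 (95% interval 0.67 to 1.52, 2.14-fold, adjusted p = 0.0135), at rank 492 of all tests by p. With normexp correction the difference was 0.47 (adjusted p = 0.0118). The call was lost in an equal-variance test without moderation (adjusted p = 0.0639) and without hypertensive replicates 1 and 4 together (0.93, adjusted p = 0.0777). With the slide column, which is also the replicate number, as a term the adjusted p was 0.0534, so the call was lost there too, while leaving out any single array gave 0.97 to 1.23. Its other probe was not well above background on any array, so the rise rests on 1 probe.

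The level of Col11a1 was 1.06, 0.93, 0.74 and 0.94 in controls and 1.48, 1.20, 0.89 and 0.53 in hypertensive rats, which overlap. The difference was 0.11 ± 0.19 (95% interval -0.32 to 0.54, adjusted p = 0.784). Of the chondrocyte marker list, which was included because type XI is a cartilage collagen, Acan, Hapln1 and Cnmd, which encode aggrecan, a link protein and chondromodulin, were not well above background on any array. The tested members Sox9 and Comp differed by 0.14 ± 0.13 and 0.31 ± 0.19 and did not pass.

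Col11a2 lies within the rat major histocompatibility complex, the region of antigen presentation genes. Of the 30 genes nearest to it in the annotation order, 15 on each side, 18 were tested and 2 were higher (11.1%, against 4.53% of all tests in either direction), RT1-Bb by 1.55 ± 0.21 (adjusted p = 0.00412) and RT1-A1 by 0.73 ± 0.10 (adjusted p = 0.0055). This window was chosen after the value of Col11a2 was seen. RT1-Bb encodes a class II chain and RT1-A1 a class I chain, and near-identical RT1 genes can share a probe, so which copy changed is uncertain. The nearest tested genes on either side did not pass: RT1-DOa differed by 0.18 ± 0.20 (adjusted p = 0.654) and Rxrb, which encodes retinoid X receptor beta, by 0.05 ± 0.10 (adjusted p = 0.827, with the sign turned under median centring). The other neighbours that did not pass ranged from -0.53 to 0.48.

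**Figure D3:**
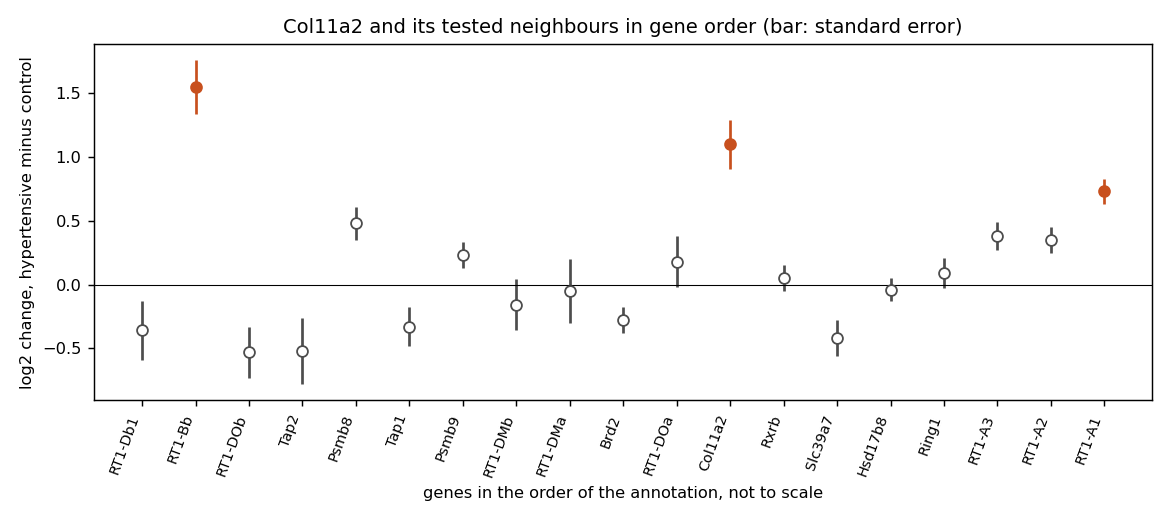
Log2 difference, hypertensive minus control, with its standard error for Col11a2 and its 18 tested neighbours in the order of the annotation, not to scale. Filled points passed an adjusted p under 0.05: RT1-Bb and RT1-A1 lie toward the edges of the window and the genes next to Col11a2 lie near 0.

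Type I collagen is built from Col1a1 and Col1a2, and is the main collagen of the vessel wall. The level of Col1a1 was 8.81, 8.97, 8.11 and 7.69 in controls and 8.75, 6.99, 6.81 and 7.23 in hypertensive rats. Hypertensive replicate 1 lay within the range of the controls, and hypertensive replicates 2 to 4 were below all controls. The difference was -0.95 ± 0.45 (95% interval -1.96 to 0.07, adjusted p = 0.277), which did not pass. Its other probe gave -0.44 ± 0.28. Col1a2 was far steadier, at 8.49, 8.70, 8.41 and 8.41 in controls and 8.87, 8.43, 8.32 and 8.26 in hypertensive rats. Its difference was -0.03 ± 0.14 (95% interval -0.35 to 0.29, adjusted p = 0.93). From the lowest to the highest of the 8 arrays the signal differed 4.47-fold for Col1a1 (2.43-fold on its other kept probe) and 1.53-fold for Col1a2. No spot of either gene was saturated.

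Col3a1, which encodes the single chain of type III collagen, was at 8.46, 8.38, 7.89 and 7.03 in controls and at 8.45, 6.71, 6.63 and 7.14 in hypertensive rats. Its arrays fell in much the same order as those of Col1a1, and the groups overlapped. The difference was -0.71 ± 0.45 (95% interval -1.72 to 0.30, adjusted p = 0.414). Type V collagen starts and limits the fibrils of type I. Its chain Col5a1 was at 5.33, 5.24, 4.59 and 4.27 in controls and at 5.08, 3.90, 3.92 and 4.04 in hypertensive rats. Hypertensive replicate 1 was again among the controls, and the difference was -0.62 ± 0.32 (95% interval -1.35 to 0.11, adjusted p = 0.323), with -0.60 ± 0.28 on its other probe. Col5a3, a further type V chain, was at 2.35, 1.85, 1.82 and 1.64 in controls and at 2.37, 0.52, 1.14 and 1.36 in hypertensive rats. The difference was -0.57 ± 0.35 (adjusted p = 0.403). Col2a1, the cartilage type II chain, was low at -4.65 to -4.15 in controls and -4.84 to -4.61 in hypertensive rats. It differed by -0.27 ± 0.12 (unadjusted p = 0.0439, adjusted p = 0.23).

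**Figure D4:**
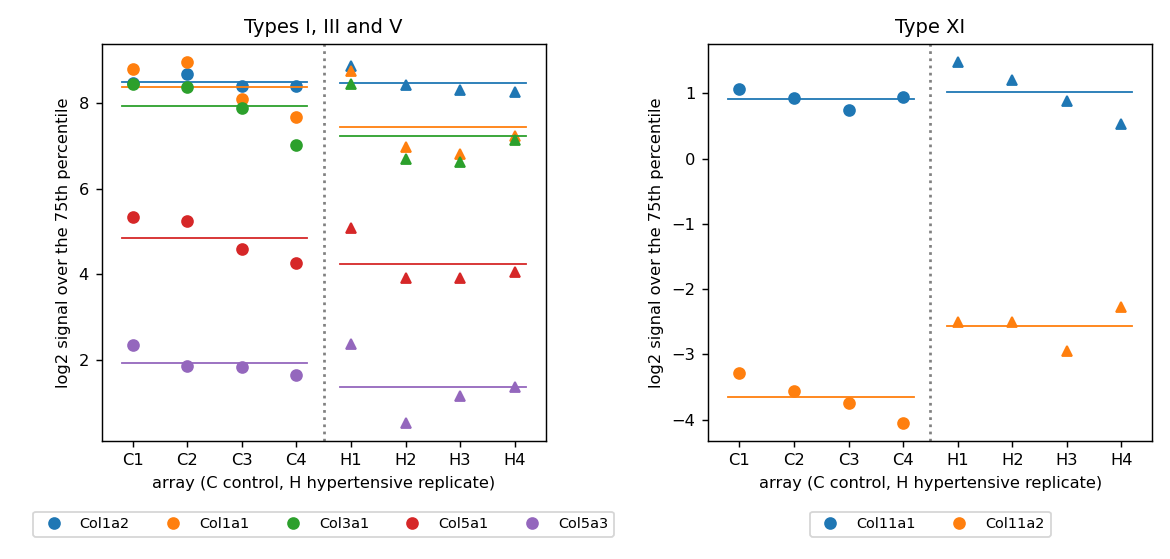
Level (log2 signal over the array's 75th percentile) of 7 fibrillar collagen genes on the 4 control (C, circles) and 4 hypertensive (H, triangles) arrays, with horizontal lines at the group means. Col1a1, Col3a1, Col5a1 and Col5a3 are high on H1 and lower on H2 to H4, Col1a2 is nearly level, and Col11a2 is higher on every hypertensive array.

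The promoter windows of Col1a2 and Col5a1 are shown because these fibrillar genes, whose products join in the same fibrils, had a steady and a variable level. They lie at chr4:33518307-33518556, plus strand, and chr3:31606630-31606879, plus strand, and follow the same marking.
Col1a2: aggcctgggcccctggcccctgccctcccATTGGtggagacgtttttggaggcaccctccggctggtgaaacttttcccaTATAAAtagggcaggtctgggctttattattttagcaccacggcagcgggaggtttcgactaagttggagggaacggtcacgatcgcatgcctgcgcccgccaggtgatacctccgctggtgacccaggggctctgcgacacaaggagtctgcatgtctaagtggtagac
Col5a1: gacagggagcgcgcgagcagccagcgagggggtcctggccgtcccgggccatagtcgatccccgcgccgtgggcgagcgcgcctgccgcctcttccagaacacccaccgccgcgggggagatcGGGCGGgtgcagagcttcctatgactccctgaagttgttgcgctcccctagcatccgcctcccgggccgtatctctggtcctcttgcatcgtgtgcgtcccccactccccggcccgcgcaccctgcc
Col1a2 held 1 TATAAA match, which began 170 bases before the annotated start, and 1 CCAAT match. Col5a1 held neither, and had 1 GGGCGG match that began 127 bases before its start. A match of these letters is a description and not a site of binding. Among 35 collagen genes with a window in the RefSeq table, TATAAA was found in 4 (11.4%, against 13.1% of all 27457 windows of that length) and CCAAT in 11 (31.4%, against 34.3%). GGGCGG was found in 19 (54.3%, against 32.4%). The median GC content of the windows was 58.8% for the collagen genes and 52.0% for all genes, and GGGCGG is made of G and C only.

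Many collagen genes ranked the 8 arrays in a like order, which crossed the groups. This was noticed after the values were seen. For 9 of the 22 genes (Col1a1, Col1a2, Col3a1, Col5a1, Col5a3, Col6a2, Col14a1, Col15a1 and Col16a1) the 3 highest arrays were control replicates 1 and 2 and hypertensive replicate 1, an arrangement found in 2.46% of all tests. These genes are read on the same 8 arrays and are not independent of each other. The median deviation of the fibrillar genes from the control mean was 0.39, 0.24, -0.14 and -0.33 on the controls, and 0.41, -0.59, -0.60 and -0.47 on the hypertensive arrays. Control and hypertensive replicate 1, both high, lay in the same slide column, while in the column of replicate 2 the control was high and the hypertensive array low. The part of slide column in this order was not tested beyond the fit with the replicate number as a term. The mean level of the fibroblast markers was 4.77 on hypertensive replicate 1 and 4.57 to 4.90 on the other hypertensive arrays, and 4.86 to 5.18 on the controls.

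Without hypertensive replicate 1, the groups did not overlap for 6 genes that were lower in hypertensive rats (Col1a1, Col5a1, Col5a3, Col6a2, Col8a1 and Col16a1), against 7.73% of all tests. In that fit 10 of the 22 genes had an unadjusted p under 0.05, against 19.6% of all tests, and 18 of 22 differences were below 0, against 43.1% of all tests. Leaving out any other single array gave 1 to 5 of 22 genes with an unadjusted p under 0.05, and 0 to 2 that were lower without overlap. The array was singled out after its values were seen. None of them passed the adjusted threshold as lower, and Col11a2 was still the only collagen gene called. No label gives a reason to leave this array out.

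The basement membrane group had 2 of 6 genes tested, and neither passed or had an unadjusted p under 0.05. Col4a1, which joins with Col4a2 in the type IV network found in nearly all basement membranes, was at 3.80, 3.56, 3.63 and 3.25 in controls and at 4.18, 3.26, 3.76 and 3.27 in hypertensive rats. The groups overlapped, with a difference of 0.05 ± 0.22 (95% interval -0.44 to 0.55, adjusted p = 0.914) whose sign turned under median centring. Col4a4, which joins with Col4a3 and Col4a5 in the network of kidney filters, was at -1.37 to -1.04 in controls and at -1.39 to -0.62 in hypertensive rats. It differed by 0.18 ± 0.17 (95% interval -0.20 to 0.57, adjusted p = 0.584). The type IV genes lie head to head in pairs: the annotated starts of Col4a1 and Col4a2 were 77 bases apart, those of Col4a3 and Col4a4 were 413 apart and those of Col4a5 and Col4a6 were 1415 apart. The window before Col4a1, at chr16:84885347-84885596, plus strand, overlaps that of Col4a2 by 76 bases and is shown with the same marking. Only its last 76 bases lie between the annotated starts of this pair, and the rest lies past the start of Col4a2.
Col4a1: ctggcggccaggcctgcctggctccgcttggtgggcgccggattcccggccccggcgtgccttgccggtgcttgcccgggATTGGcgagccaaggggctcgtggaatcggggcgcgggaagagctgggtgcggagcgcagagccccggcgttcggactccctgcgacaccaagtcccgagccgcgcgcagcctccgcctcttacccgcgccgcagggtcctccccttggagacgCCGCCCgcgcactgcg
It held 1 match to CCAAT and 1 to GGGCGG, both on the other strand. Of these, only the GGGCGG match lies between the annotated starts.

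Of the FACIT group, 3 of 9 genes were tested, and 0 passed (0 with an unadjusted p under 0.05), with a median difference of -0.27. Col14a1, a fibril surface collagen, had the smallest p of the group. It was at 1.52, 1.44, 1.28 and 0.89 in controls and at 1.28, 0.74, 0.35 and 0.97 in hypertensive rats, which overlap, and differed by -0.45 ± 0.21 (95% interval -0.93 to 0.03, adjusted p = 0.274). Col16a1, made by smooth muscle cells and fibroblasts, was at 3.24 to 3.70 in controls and 2.96 to 3.59 in hypertensive rats (-0.27 ± 0.16, adjusted p = 0.376). Col9a2, a cartilage chain, was at -3.06 to -2.80 in controls and spread from -3.78 to -1.81 in hypertensive rats (0.15 ± 0.34, adjusted p = 0.842). Its partner Col9a1 was not well above background on any array by either of its 2 probes and was not tested.

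In the remaining group 9 of 18 genes were tested, and 0 passed (0 with an unadjusted p under 0.05), with a median difference of -0.19. Col6a2, a chain of the beaded filaments that surround cells, was at 6.40, 6.15, 6.06 and 6.05 in controls and at 6.44, 5.64, 5.76 and 5.84 in hypertensive rats. It differed by -0.24 ± 0.17 (adjusted p = 0.475), and its other kept probe had the opposite sign (0.13 ± 0.12). Col6a5, a rarer type VI chain, spread from -3.11 to -0.99 in hypertensive rats and differed by -0.13 ± 0.40 (adjusted p = 0.883). The multiplexins, basement membrane zone collagens, had differences of opposite sign, neither past the threshold: Col15a1 was at 4.97 to 5.57 in controls and 4.71 to 5.44 in hypertensive rats (-0.27 ± 0.19, adjusted p = 0.46), and Col18a1, the source of endostatin, was at 2.29 to 2.61 and 2.49 to 2.72 (0.10 ± 0.10, adjusted p = 0.594). The difference between these genes was not tested.

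Col8a1, a short-chain collagen of the vessel wall, was at 1.81 to 2.13 in controls and 1.50 to 2.15 in hypertensive rats and differed by -0.21 ± 0.15 (95% interval -0.55 to 0.13, adjusted p = 0.474). Col7a1, the anchoring fibril chain of skin, differed by 0.08 ± 0.21 (adjusted p = 0.86). The membrane-spanning collagens Col13a1 and Col23a1 were low and differed by -0.19 ± 0.24 (adjusted p = 0.687) and -0.06 ± 0.18 (adjusted p = 0.892). Col26a1 had the largest difference of this group, -0.53 ± 0.47 (95% interval -1.60 to 0.54, adjusted p = 0.569). It was well above background on 3 control arrays and 1 hypertensive array. The 21 genes not matched to a probe by accession and not analysed here were Col4a2, Col4a3, Col4a5, Col4a6, Col5a2, Col6a1, Col6a3, Col6a4, Col6a6, Col8a2, Col9a3, Col10a1, Col12a1, Col17a1, Col19a1, Col20a1, Col22a1, Col24a1, Col25a1, Col27a1 and Col28a1. Several chains that join with tested ones in a trimer are among them, among these Col5a2 and Col6a1.

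Genes that make, bind and remove collagen were read from 5 lists. Of the enzymes and chaperones that fold and crosslink collagen, 19 of 23 were tested, 1 rose and 0 fell (2.61% and 1.91% of all tests). Below 0 were 14 of 19 differences, against 42.3% of all tests, and the median was -0.17. The riser was P4ha3, a subunit of prolyl 4-hydroxylase, which stabilises the triple helix. It was at -5.27, -6.14, -5.87 and -6.46 in controls and at -4.03, -4.43, -4.52 and -4.61 in hypertensive rats. The groups did not overlap, but the probe was well above background on only 1 of 4 control arrays, against 4 of 4 hypertensive arrays. It entered the fit only through the hypertensive group, and most control values are background readings, so the size of the difference is uncertain. P4ha3 was not tested when all 8 arrays had to be well above background. The difference was 1.54 ± 0.24 (adjusted p = 0.00933), and 0.21 with normexp correction (adjusted p = 0.0542), where it no longer passed. The call was also lost in the equal-variance test without moderation (adjusted p = 0.0566) and without hypertensive replicates 1 and 4 together (adjusted p = 0.0539). P3h2, a prolyl 3-hydroxylase, had the most negative value of the list, -0.83 ± 0.20 (adjusted p = 0.0521), and did not pass. In the procollagen processing list, 3 of 8 genes were tested, and 0 passed (0 with an unadjusted p under 0.05). Pcolce, an enhancer of the protease that trims procollagen, differed by -0.41 ± 0.20 (adjusted p = 0.304).

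Of the fibril-binding proteins, 10 of 13 were tested, and 0 passed (3 with an unadjusted p under 0.05, against 20.3% of all tests). Fmod, which encodes fibromodulin, a proteoglycan that binds type I fibrils, was at 4.55, 4.27, 4.57 and 4.82 in controls and at 4.20, 3.85, 3.62 and 4.15 in hypertensive rats. The groups did not overlap and the difference was -0.60 ± 0.16 (adjusted p = 0.0744). It passed with median centring (adjusted p = 0.047) and with array weights (adjusted p = 0.0344). Sparc, which encodes a collagen-binding matrix protein and was picked out after its values were seen, was at 7.86, 8.14, 7.44 and 6.94 in controls and at 7.99, 6.64, 6.38 and 6.77 in hypertensive rats, with hypertensive replicate 1 again among the controls. It differed by -0.65 ± 0.37 (adjusted p = 0.37).

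Of the collagen receptors, through which cells sense and grip the matrix, 6 of 10 were tested, 2 rose and 0 fell. The median difference was 0.44, and 5 of 6 were above 0. Among all tests 2.61% rose, 1.91% fell and 42.3% of differences were below 0. Itga1, the alpha chain of an integrin of smooth muscle that binds types IV and I, was at 6.39, 6.17, 6.38 and 6.56 in controls and at 7.17, 7.10, 7.24 and 6.80 in hypertensive rats. The groups did not overlap and the difference was 0.70 ± 0.12 (adjusted p = 0.0149). It passed without any single array but not in the equal-variance test without moderation (adjusted p = 0.0526) or with slide column as a term (adjusted p = 0.0722). Ddr2, a receptor tyrosine kinase for fibrillar collagen, was at 2.62, 2.56, 2.47 and 2.52 in controls and at 3.02, 3.05, 3.07 and 2.78 in hypertensive rats. It rose by 0.44 ± 0.09 (adjusted p = 0.031). The call was lost with median centring (0.35, adjusted p = 0.0601), without the filter on dim probes (adjusted p = 0.0956), with slide column as a term (adjusted p = 0.0822) and without any of the 4 controls or of hypertensive replicates 1 to 3 (adjusted p = 0.0646 to 0.0876). Itga10 (0.93 ± 0.24, adjusted p = 0.065) and Ddr1 (0.45 ± 0.24, adjusted p = 0.334), which also encode collagen receptors, did not pass. Of the 13 genes for collagen breakdown and its inhibitors, 8 were tested, and 0 passed (0 with an unadjusted p under 0.05), with differences from -0.47 for Mmp2, a gelatinase, to 0.11 for Timp3, a metalloproteinase inhibitor.

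**Figure D5:**
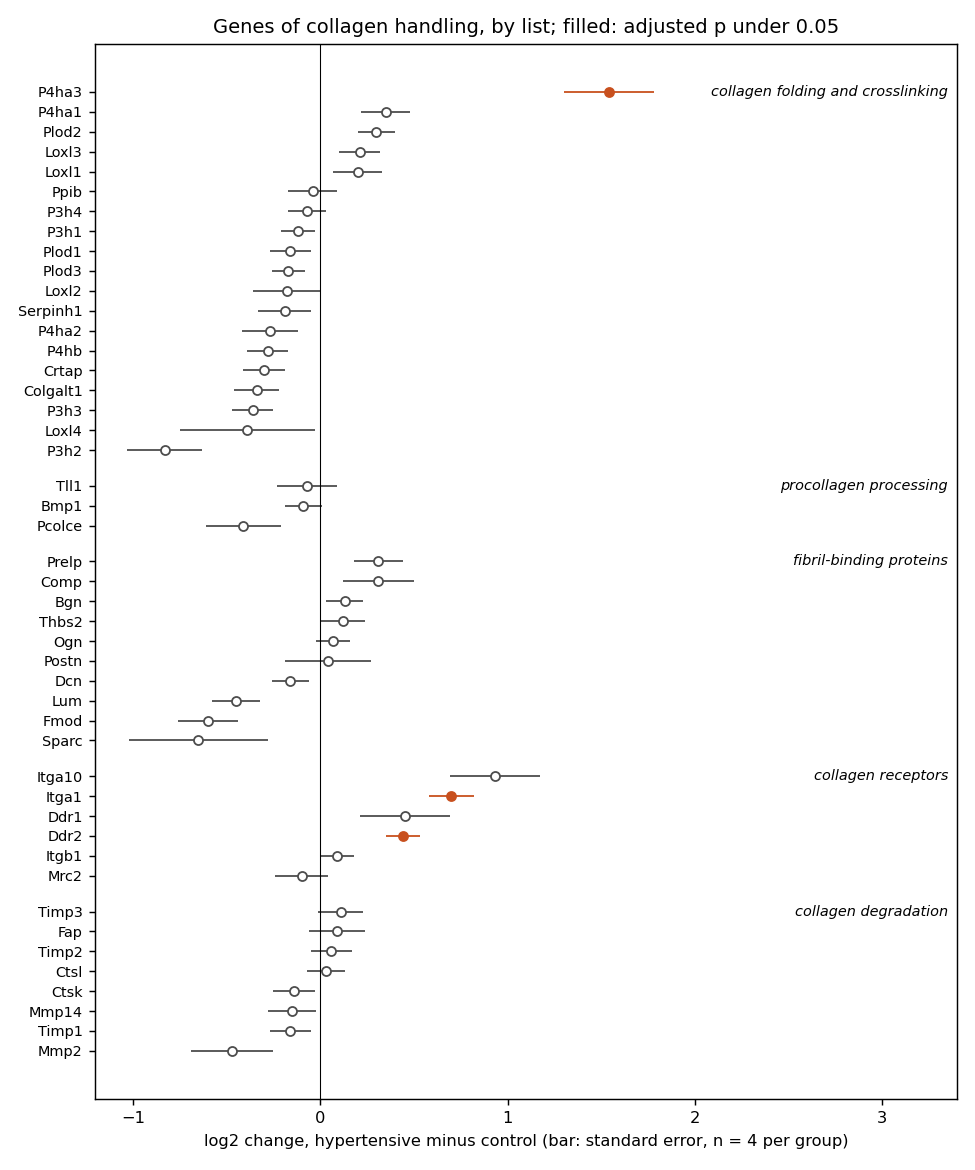
Log2 difference, hypertensive minus control, with its standard error (n = 4 arrays per group) for the tested genes of 5 lists of collagen handling. Filled points passed an adjusted p under 0.05: P4ha3 among the folding and crosslinking genes, and Itga1 and Ddr2 among the receptors.

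Markers of other cell types were read beside these results. For the counts below, 20.3% of all tests had an unadjusted p under 0.05 and 4.53% passed the threshold. The 4 tested fibroblast markers did not pass (1 with an unadjusted p under 0.05) and had a median difference of -0.22. The smallest p was that of Lum, which encodes the fibril-binding proteoglycan lumican, at -0.45 ± 0.13 (adjusted p = 0.103). Of 7 smooth muscle markers 0 passed (1 with an unadjusted p under 0.05), with Lmod1, an actin-nucleating protein, at 0.63 ± 0.17 (adjusted p = 0.0812), or 0.34 as the mean over its kept probes. The other smooth muscle markers ranged from -0.13 for Smtn to 0.17 for Acta2, and the median of the list was 0.08. The markers past the threshold in the 12 lists were the bone gene Dmp1 (adjusted p = 0.00126), the skeletal muscle gene Myh1 (2.28 ± 0.50, adjusted p = 0.0397), the epithelial gene Cdh1 (-0.62 ± 0.14, adjusted p = 0.0484) and the macrophage gene Mrc1 (-0.51 ± 0.12, adjusted p = 0.0496). The other tested skeletal muscle markers did not share the rise of Myh1 as a set: Acta1 differed by -0.42, Tnnt3 by -0.14 and Ckm by 0.24. The other tested epithelial markers, Krt5 (0.24) and Krt14 (0.14), had the opposite sign to Cdh1. None of these others passed. Myh1 was well above background on 3 of 4 control arrays. Dmp1 was well above background on 0 of 4 control arrays and 3 of 4 hypertensive arrays, so it has only a bound: at least 2.52-fold higher, against the higher of its own signal and the lowest signal well above background on each control array. The Dmp1 probe entered the fit only through the hypertensive group, so its adjusted p compares a signal with background readings. With normexp correction the differences were 0.34 for Dmp1, where the same limit holds, 0.69 for Myh1 and -0.30 for Cdh1, all still past the threshold. Dmp1 and Myh1 were not tested when all 8 arrays had to be well above background. Without the filter on dim probes and in the equal-variance test, Myh1 (adjusted p = 0.0837 and 0.124), Cdh1 (0.114 in both) and Mrc1 (0.123 and 0.101) did not pass. Myh1 also did not pass with array weights (2.07, adjusted p = 0.054), nor Mrc1 with slide column as a term (adjusted p = 0.0612). Without hypertensive replicates 1 and 4 together, Myh1 (adjusted p = 0.126) and Cdh1 (adjusted p = 0.0504) did not pass. The calls of Cdh1 and Mrc1 were lost without any single array other than hypertensive replicate 4 (-0.69 to -0.50 and -0.55 to -0.44), and that of Myh1 without any single array other than hypertensive replicate 2 (1.84 to 2.49). In the lists with no member past the threshold, the smallest p was that of Cldn5 for endothelium (-0.43), Fabp4 for white adipocytes (0.93 ± 0.49), Sox10 for Schwann cells (0.49), Comp for chondrocytes, Tnnt2 for cardiac muscle (0.19) and Cma1 for mast cells (0.82). All 4 mast cell markers were above 0 with an unadjusted p under 0.05 (median 0.72, mean level of -1.27 to -0.65 in controls and -0.62 to 0.14 in hypertensive rats). All 4 macrophage markers were below 0, 3 of them with an unadjusted p under 0.05 (median -0.49, mean level 0.08 to 0.21 in controls and -0.54 to 0 in hypertensive rats). The part of cell makeup in the collagen values was not tested.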

How the data were processed

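RNA of 8 rat vessels (4 control, 4 hypertensive) was measured on Agilent 1-colour arrays after Trizol extraction and Cy3 labelling of 100 ng, per the labels' protocols. The scanner files hold processed spot intensity values, already background-subtracted by Agilent Feature Extraction (version 10.7.1.1 per the file headers, 12.1.1.1 per the submitters' processing notes). The deposited value table holds a linear ratio, which matches processed intensity over the array's 75th percentile (0% of probes above 1 were off by over 5%); its column medians were 0.086 to 0.101, and it was an alternative only.

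On each array, 213 to 396 outlier spots were dropped unless a probe had no other. Log2 values of a probe's spots were averaged and the array's 75th percentile subtracted. Probes entered the fit if 3 or more of the 4 arrays of either group marked them well above background (27822 of 45598 probes). Accessions named 21229 probes (46.6%) through RefSeq (GRCr8). The brightest kept probe gave a gene's value, and probes without a name were tested singly. Groups were compared with limma 3.58.1 in R 4.3.3 over all 24552 tests (lmFit, eBayes, group only, Benjamini-Hochberg). The same fit was also run on simulated data drawn with the means and spreads of these data. Nothing says whether a rat's RNA was pooled, so p-values measure the spread between these samples.

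The collagen genes and all gene lists were chosen with earlier results of these data known. Named were all tested collagen genes, and from each other list every member past the threshold, or else that with the smallest p. Further members were named outside this rule, among them P3h2, Sparc, Itga10, Ddr1, Timp3 and other chondrocyte, skeletal muscle and epithelial markers. Alternatives were other centring, normalization, background correction, filters, probe averaging, the deposited table, array weights, an equal-variance test, a term for the replicate number (the slide column) and leaving out arrays. The normexp alternative used the median signal, since the files hold no mean signal column, and leaving out 2 arrays together was chosen after seeing the data. The arrays of equal replicate number did not deviate together throughout, so the numbers were not taken as pairs.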

Additional observations from a re-analysis of the deposited data

Results flagged for a closer look

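A sample far from the other 3 of its group was found in 8 of 124 groups of 4 arrays examined, while chance gives about 1 in 20. Values are log2 levels over the array's 75th percentile. Col5a1 was at 5.08 on hypertensive replicate 1, against 3.90 to 4.04 on the other hypertensive arrays. The same array was far above the others for Pcolce, at 6.71 against 5.91 to 6.02, and for the mean of the fibril-binding proteins, at 4.42 against 4.03 to 4.08. Fabp4, a white adipocyte gene, was at 3.44 on hypertensive replicate 4, against 1.28 to 1.48. The endothelial marker mean was 3.83 on hypertensive replicate 2, against 3.70 to 3.72. Among controls, the Dmp1 probe read -7.69 on replicate 1, against -7.21 to -7.12, but it was well above background on 0 of 4 control arrays, so these are background readings and not levels of the gene. The mean of the collagen receptors was 1.73 on control replicate 1, against 1.48 to 1.52, and that of the collagen degradation genes was 4.70 on control replicate 2, against 4.52 to 4.54.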

How the results depend on the processing

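The median difference of the collagen genes stayed below 0 under all 19 alternatives (-0.33 to -0.10). Their count past the threshold stayed at 1, Col11a2, except that it was 0 in the equal-variance test, with the replicate number as a block and without hypertensive replicates 1 and 4 together. Over all tests the count was 641 without the filter on dim probes, 593 in the equal-variance test, 675 with the replicate block and 629 to 1473 without any 1 array, lowest without control replicate 1 and at 725, 695 and 688 without control replicate 2, control replicate 3 and hypertensive replicate 2. With the replicate block the adjusted p was 0.0534 for Col11a2, 0.0722 for Itga1 and 0.0822 for Ddr2. Deviations of arrays of equal number correlated at 0.21, 0.12, 0 and -0.15 for numbers 1 to 4, so the numbers, which are also the slide columns, were not taken as pairs. For differences near 0 the sign turned, and the cause was not tested. Without any 1 array, Col1a2 ranged from -0.16 to 0.04, Col4a1 from -0.14 to 0.17, Col6a5 from -0.54 to 0.16, Col7a1 from -0.06 to 0.22, Col9a2 from -0.18 to 0.47, Col11a1 from -0.04 to 0.28 and Col23a1 from -0.16 to 0.11. Median centring gave -0.03 for Col4a1, -0.01 for Col7a1 and -0.04 for Rxrb. Array weights gave -0.01 for Col7a1, 0.04 for Col23a1 and -0.02 for Rxrb. Without hypertensive replicates 1 and 4 together, Col4a1 was -0.06, Col9a2 -0.30, Col23a1 0.03, Rxrb -0.05 and Tnnt2 -0.01. Dim signal over background limits Col26a1, Col2a1, P4ha3, Itga10, Ddr1, Myh1 and Dmp1.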
